A study of Mus musculus with 12 samples.

Results

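The genes described here are 32 targets of the tumour suppressor p53, kinases and cofactors of the DNA damage response, and inhibitors of the cell cycle that mark senescent cells. They were taken as a list of names, and where a gene had several probe sets the one brightest on average across the 12 arrays stood for it. Of the 32 genes, 29 had a probe set named for them alone among the 18194 genes tested, and Trp53, Bax and Gdf15 were not analysed here. Total RNA from lungs of C57BL/6 mice was hybridized to Affymetrix arrays, 1 array per sample, 3 arrays per group, all at day 21 after an injection into the trachea. The 4 groups were FIZZ2 knockout lungs after bleomycin, FIZZ2 knockout lungs after saline, wild type lungs after bleomycin and wild type lungs after saline, and all lungs were perfused with PBS before harvest. FIZZ2 is the secreted protein encoded by Retnlb, and the labels do not describe the allele or say where in the body it was deleted. Whether the 3 samples of a group came from different mice is not stated, and the p-values therefore reflect only how these samples vary, which may be technical.

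Bleomycin is an antitumour drug that breaks DNA and scars the lung. After a break, the kinases ATM, CHK1 and CHK2 signal to p53, which is otherwise kept low by the ubiquitin ligase MDM2, and p53 then turns on genes that halt the cell cycle, repair DNA, limit oxidants or kill the cell. Cells whose damage persists can enter senescence, a lasting arrest held by p21 (Cdkn1a) and by the Ink4 inhibitors p16 and p15. The question put to the arrays was whether this signature was still present at day 21 and whether it differed between knockout and wild type lungs.

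The arrays fit their tissue label: the 9 alveolar epithelial markers measured lay between the 94.8th and the 100th percentile of all genes, and the 6 endothelial markers between the 94.7th and the 98.8th. Array medians lay between 5.58 and 5.68 on the log2 scale. The probe set for Retnlb was dim in all groups (mean log2 value 3.74) and differed by -0.35 between knockout and wild type lungs after bleomycin (adjusted p = 0.0502) and by 0.00 after saline (adjusted p = 0.997), so it gave no firm check of the genotype labels. The makeup of the tissue moved with treatment. The mean log2 value of 12 macrophage markers on an array was 8.87 to 9.15 in knockout bleomycin lungs, against 8.30 to 8.39 in knockout saline lungs, and 9.44 to 9.79 in wild type bleomycin lungs, against 8.10 to 8.27 in wild type saline lungs. The mean of 21 proliferation genes was 6.41 to 6.76 in knockout bleomycin lungs, against 5.98 to 6.15 in knockout saline lungs, and 7.74 to 8.08 in wild type bleomycin lungs, against 6.07 to 6.51 in wild type saline lungs. The mean of 9 fibroblast and matrix genes was 10.77 to 11.06 in knockout bleomycin lungs, against 10.19 to 10.26 in knockout saline lungs, and 11.78 to 12.20 in wild type bleomycin lungs, against 10.36 to 10.42 in wild type saline lungs. Markers of T and NK cells ran the other way, with a mean of 6.93 to 7.18 in knockout bleomycin lungs, against 7.28 to 7.39 in knockout saline lungs, and 6.10 to 6.53 in wild type bleomycin lungs, against 7.12 to 7.40 in wild type saline lungs. Of 6 cardiac muscle markers, 0 passed in knockout lungs (median change -1.36) and all 6 fell in wild type lungs (median change -2.15). Their mean was 7.51 to 10.03 in knockout bleomycin lungs, against 9.72 to 10.44 in knockout saline lungs, and 7.55 to 8.39 in wild type bleomycin lungs, against 9.61 to 10.34 in wild type saline lungs. Endothelial markers fell for 2 of 6 in knockout lungs and 4 of 6 in wild type lungs. Airway epithelial markers fell for 0 of 6 in knockout lungs and 3 of 6 in wild type lungs. Of 9 alveolar epithelial markers, 0 passed in knockout lungs, and 4 fell and 1 rose in wild type lungs. Of all genes, 1.29% fell and 1.98% rose in knockout lungs, and 14.4% fell and 13.3% rose in wild type lungs. The mean of 7 B and plasma cell markers was 9.31 to 9.47 in knockout bleomycin lungs, against 8.61 to 9.17 in knockout saline lungs. It was 8.06 to 8.47 in wild type bleomycin lungs, against 8.37 to 8.56 in wild type saline lungs. In such bulk tissue, more cells of a type and more RNA per cell cannot be told apart, nor can fewer cells and less RNA. The part of these shifts in the results below was not tested.

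Genes of the p53 response were still higher after bleomycin than after saline at day 21 in both genotypes. In knockout lungs, 5 of the 29 genes were higher after bleomycin and 0 lower (limma, adjusted p under 0.05), which is 17.2% of them beside 3.26% of all genes called in that comparison (1.98% higher, 1.29% lower). The 5 were Cdkn1a, Ccng1, Phlda3, Zmat3 and Aen. In wild type lungs, 14 were higher and 3 lower, 58.6% beside 27.7% of all genes (13.3% higher, 14.4% lower), and the 14 included all 5 that rose in knockout lungs. The 14 became 9 without wild type saline replicate 1 or without wild type bleomycin replicate 2, and the 5 became 3 without any 1 knockout saline array or without knockout bleomycin replicate 2 or 3. The median log2 change of the 29 genes was 0.07 in knockout lungs, with 0.01 over all genes, and 0.21 in wild type lungs, with -0.04 over all genes. The 10 genes that passed in none of the 6 comparisons made changed by -0.36 to 0.25 in either genotype. Without regard to p, the bleomycin arrays lay wholly above the saline arrays for 11 of the 29 in knockout lungs (15.2% of all genes did so) and for 16 in wild type lungs (17.2% of all genes). They lay wholly below for 4 in knockout lungs (11.8% of all genes) and 4 in wild type lungs (22.8% of all genes). Averaged over the genotypes, 12 of the 29 were higher and 3 lower, 51.7% beside 27.1% of all genes (13.4% higher, 13.7% lower).

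**Figure D1:**
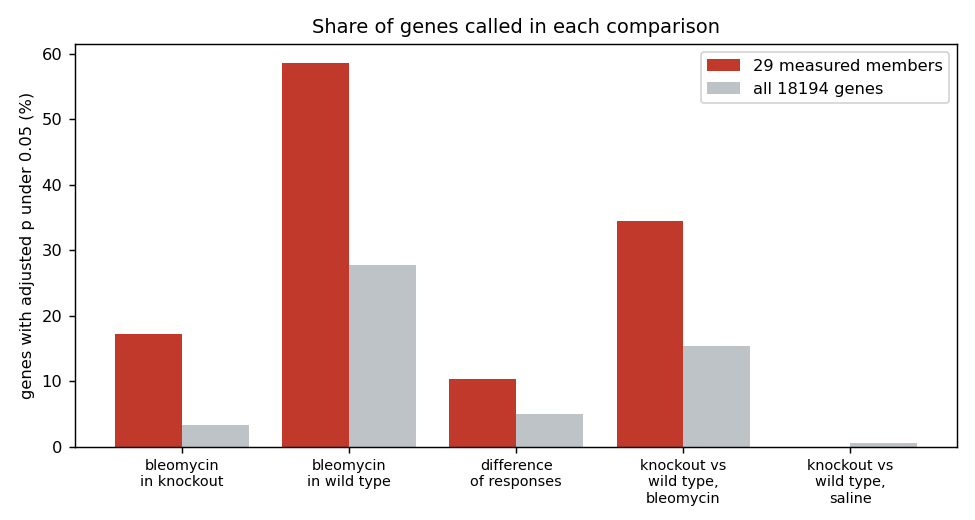
Share of genes past an adjusted p of 0.05, in percent, for the 29 measured genes (red) and for all 18194 genes (grey) in each of 5 comparisons. The share among the 29 was 17.2% beside 3.26% for bleomycin in knockout, 58.6% beside 27.7% for bleomycin in wild type, 10.3% beside 5.02% for the difference of responses, 34.5% beside 15.4% for knockout against wild type after bleomycin, and 0 beside 0.489% after saline.

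Cdkn1a encodes p21, the inhibitor of cyclin-dependent kinases through which p53 halts the cell cycle, and it had the largest rise among the 29 in both genotypes. Its log2 value was 9.29, 9.98 and 9.98 in knockout bleomycin lungs, against 8.35, 8.47 and 8.66 in knockout saline lungs. It was 10.67, 10.45 and 10.73 in wild type bleomycin lungs, against 8.48, 8.96 and 8.61 in wild type saline lungs. Bleomycin and saline arrays did not overlap in either genotype, and each knockout bleomycin array lay below each wild type bleomycin array. The rise was 2.39-fold in knockout lungs (log2 change 1.25 ± 0.18 SE, adjusted p = 0.00267) and 3.82-fold in wild type lungs (1.93 ± 0.18, adjusted p = 6.75e-06). A second, dimmer probe set of Cdkn1a changed by 1.28 in knockout lungs and 1.66 in wild type lungs.

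The promoters of Cdkn1a, Ccng1 and Sesn1 are shown because each holds a match to the p53 consensus site, while Cdkn1a and Ccng1 rose and Sesn1 fell. The sequences are from RefSeq on GRCm38.p6, from 250 bases before to 50 bases after the gene's start, and capitals mark the match. The Cdkn1a window, at the upstream of its 2 starts, is chr17:29090729-29091028 (plus strand). The Ccng1 window is chr11:40755237-40755536 (minus strand) and the Sesn1 window, at the downstream of its 2 starts, chr10:41887189-41887488 (plus strand). The windows at the other start of Cdkn1a (chr17:29093519-29093818) and of Sesn1 (chr10:41810324-41810623) hold no match and no exact half-site.
Cdkn1a: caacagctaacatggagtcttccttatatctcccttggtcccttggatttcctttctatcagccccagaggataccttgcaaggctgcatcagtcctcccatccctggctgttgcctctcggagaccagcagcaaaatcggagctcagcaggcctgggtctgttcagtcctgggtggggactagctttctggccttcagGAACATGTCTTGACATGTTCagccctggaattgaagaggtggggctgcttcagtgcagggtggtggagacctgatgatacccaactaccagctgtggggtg
Ccng1: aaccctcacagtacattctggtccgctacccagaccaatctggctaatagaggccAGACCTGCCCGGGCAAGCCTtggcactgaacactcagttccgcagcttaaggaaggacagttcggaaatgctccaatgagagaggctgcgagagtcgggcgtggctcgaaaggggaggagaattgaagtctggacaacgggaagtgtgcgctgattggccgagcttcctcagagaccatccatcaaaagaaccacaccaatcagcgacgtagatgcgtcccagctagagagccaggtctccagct
Sesn1: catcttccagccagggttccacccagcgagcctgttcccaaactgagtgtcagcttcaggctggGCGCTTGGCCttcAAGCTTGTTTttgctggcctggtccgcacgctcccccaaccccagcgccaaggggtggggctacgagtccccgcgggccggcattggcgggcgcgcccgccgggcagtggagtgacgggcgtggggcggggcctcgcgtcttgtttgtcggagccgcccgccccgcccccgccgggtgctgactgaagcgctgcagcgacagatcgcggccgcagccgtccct
Counted from the start whose window is shown, the match begins at -51 in Cdkn1a, at -195 in Ccng1 and at -186 in Sesn1. The search took 2 half-sites of 10 bases, at most 13 bases apart, with at most 2 mismatches and the central C and G kept in each, and since the consensus is its own reverse complement it covers both strands. Of the 29 genes, 21 were in the promoter table, with 28 windows. The full site was in 4 of these windows (14.3%; the fourth is of Gadd45a), beside 4.09% of all 32851 promoter windows, and an exact half-site in 32.1% of them, beside 8.36% of all. A match describes the letters in this window and says nothing of binding.

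Ccng1 encodes cyclin G1, which feeds back on p53 and MDM2. Its log2 value was 9.83, 10.43 and 10.28 in knockout bleomycin lungs, against 9.54, 9.52 and 9.64 in knockout saline lungs, and 10.38, 10.66 and 10.60 in wild type bleomycin lungs, against 9.43, 9.63 and 9.49 in wild type saline lungs. All bleomycin arrays were above all saline arrays of their genotype, with a rise of 1.53-fold in knockout lungs (0.61 ± 0.13, adjusted p = 0.0262) and 2.04-fold in wild type lungs (1.03 ± 0.13, adjusted p = 9.43e-05). The knockout call was lost with any 1 knockout saline array left out, or without knockout bleomycin replicate 2 or 3 (adjusted p 0.057 to 0.106). Its other 2 probe sets rose by 1.23 and 1.45 in wild type lungs and changed by 0.57 and 0.56 in knockout lungs, where neither passed.

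Of the other growth arrest targets, Plk2, a kinase of the centrosome and of stress signalling, read 9.85, 9.94 and 9.80 in knockout bleomycin lungs, against 9.65, 9.34 and 9.45 in knockout saline lungs, and 9.56, 9.65 and 9.71 in wild type bleomycin lungs, against 9.31, 8.96 and 9.31 in wild type saline lungs. The groups did not overlap in either genotype, and the change was 0.38 in knockout lungs (adjusted p = 0.0812) and 0.45 in wild type lungs (adjusted p = 0.00758). A second, dim Plk2 probe set (mean 4.21) changed by -0.29 in wild type lungs, and the wild type call was lost when all probe sets were averaged (adjusted p = 0.547). Gadd45a, which binds PCNA and slows the cycle at damage, was 7.05 to 7.13 in knockout bleomycin lungs, against 6.94 to 7.05 in knockout saline lungs, and 6.90 to 6.98 in wild type bleomycin lungs, against 6.66 to 6.83 in wild type saline lungs. Its wild type rise of 0.21 (adjusted p = 0.0475) was small and did not pass when any 1 of 11 of the 12 arrays was left out (adjusted p up to 0.135). Gadd45b, its relative, changed by 0.06 in knockout lungs and -0.11 in wild type lungs, and neither passed.

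**Figure D2:**
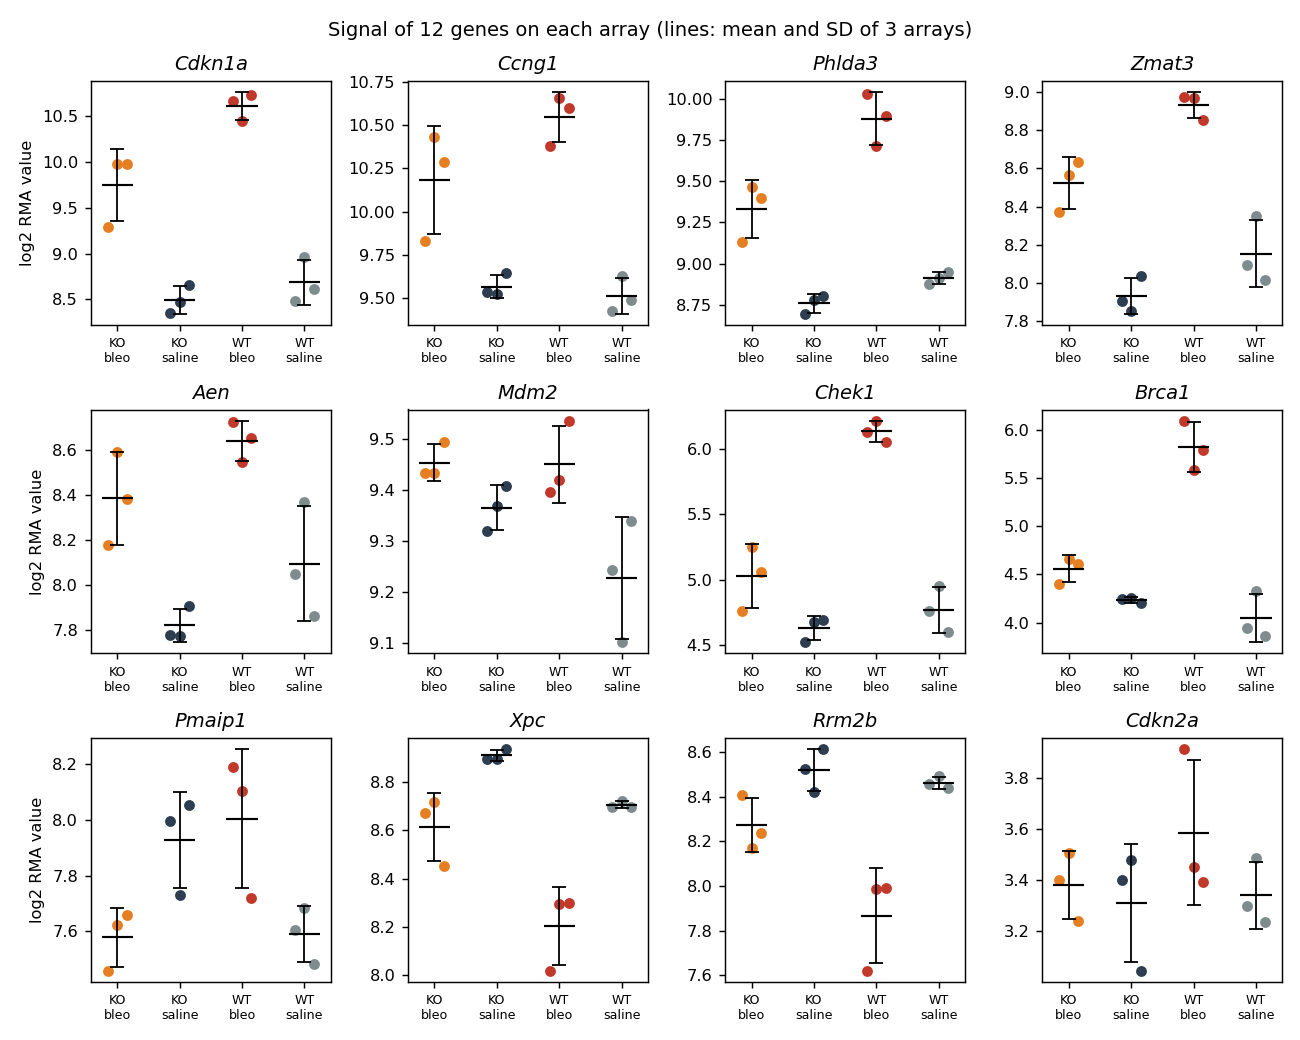
The log2 RMA value of 12 of the genes on each array (points), with the mean and SD of the 3 arrays of a group (lines), for knockout bleomycin, knockout saline, wild type bleomycin and wild type saline lungs, left to right. For Cdkn1a, Ccng1, Phlda3, Zmat3 and Aen the bleomycin arrays lie above the saline arrays in both genotypes, while Chek1 and Brca1 stand far above all other groups in wild type bleomycin lungs.

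Among the 11 apoptosis targets measured, 3 rose in knockout lungs (27.3% beside 1.98% of all genes) and 6 in wild type lungs (54.5% beside 13.3%), and 0 fell in either. Phlda3, a membrane-binding protein that restrains the survival kinase Akt, read 9.13, 9.47 and 9.40 in knockout bleomycin lungs, against 8.69, 8.78 and 8.80 in knockout saline lungs, and 10.03, 9.71 and 9.90 in wild type bleomycin lungs, against 8.87, 8.91 and 8.95 in wild type saline lungs. The groups did not overlap, and the rise was 1.49-fold in knockout lungs (0.57 ± 0.10, adjusted p = 0.00943) and 1.96-fold in wild type lungs (0.97 ± 0.10, adjusted p = 1.91e-05). Zmat3, a zinc finger protein that binds RNA, read 8.37, 8.56 and 8.63 in knockout bleomycin lungs, against 7.91, 7.85 and 8.04 in knockout saline lungs, and 8.97, 8.97 and 8.85 in wild type bleomycin lungs, against 8.10, 8.35 and 8.01 in wild type saline lungs. It too separated treatments in both genotypes, with a rise of 1.5-fold in knockout lungs (0.59 ± 0.10, adjusted p = 0.00826) and 1.72-fold in wild type lungs (0.78 ± 0.10, adjusted p = 0.000103).

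Aen, an exonuclease that digests DNA in apoptosis, was among the called genes whose response was most alike between genotypes. Its difference of responses was 0.02, with -0.02 for Ei24 and 0.02 for Sesn2. It read 8.18, 8.59 and 8.38 in knockout bleomycin lungs, against 7.78, 7.78 and 7.91 in knockout saline lungs, and 8.72, 8.54 and 8.65 in wild type bleomycin lungs, against 8.05, 8.37 and 7.86 in wild type saline lungs. The rise was 1.48-fold in knockout lungs (0.56 ± 0.13, adjusted p = 0.0327) and 1.46-fold in wild type lungs (0.54 ± 0.13, adjusted p = 0.00617), and the difference of the responses had a 95% interval of -0.37 to 0.41. The knockout call was lost without any 1 knockout saline array or without knockout bleomycin replicate 2 or 3 (adjusted p 0.0656 to 0.129). Of its 3 other probe sets, 1 also rose in wild type lungs (0.77), and none passed in knockout lungs. Their differences of responses ran from -0.30 to 0.32, and none passed.

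Pmaip1, which encodes the death-promoting BH3 protein Noxa, ran in opposite directions. It was 7.46, 7.62 and 7.66 in knockout bleomycin lungs, against 7.73 to 8.05 in knockout saline lungs, and 8.19, 8.10 and 7.72 in wild type bleomycin lungs, against 7.60, 7.68 and 7.48 in wild type saline lungs. Knockout bleomycin arrays were all below knockout saline arrays, and wild type bleomycin arrays all above wild type saline arrays. The log2 change was -0.35 ± 0.12 in knockout lungs (adjusted p = 0.155) and 0.41 ± 0.12 in wild type lungs (adjusted p = 0.0243). The wild type call was lost without wild type saline replicate 1 or 3 or wild type bleomycin replicate 1 or 2 (adjusted p 0.0578 to 0.0967). It was also lost with quantile normalization repeated (limma, adjusted p = 0.0524) and in a fit of the 2 groups alone (adjusted p = 0.054).

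Apaf1, the scaffold of the apoptosome, read 8.05, 8.24 and 8.04 in knockout bleomycin lungs, against 8.14, 7.90 and 8.17 in knockout saline lungs, and 8.54, 8.63 and 8.43 in wild type bleomycin lungs, against 8.10, 7.98 and 8.04 in wild type saline lungs. The knockout groups overlapped (0.04, adjusted p = 0.869) and the wild type groups did not (0.50, adjusted p = 0.00151). The difference of the Apaf1 responses, -0.45, did not pass (limma, adjusted p = 0.0655), although it did without knockout saline replicate 2 (adjusted p = 0.0496). Ei24, a protein of the endoplasmic reticulum, rose by 0.21 in wild type lungs (adjusted p = 0.0371) and changed by 0.19 in knockout lungs (adjusted p = 0.157), and the wild type call was lost without any of 6 arrays, wild type saline replicates 1 and 3, wild type bleomycin replicates 2 and 3 and knockout saline replicates 1 and 3 (adjusted p 0.0514 to 0.128). Its arrays were 10.08 to 10.12 in knockout bleomycin lungs, against 9.85 to 9.95 in knockout saline lungs, and 10.06 to 10.18 in wild type bleomycin lungs, against 9.86 to 9.97 in wild type saline lungs. The other 5 apoptosis targets did not pass in either genotype: Bbc3, which encodes the BH3 protein Puma, Perp, a membrane protein of desmosomes, the death receptors Fas and Tnfrsf10b, and Trp53inp1. Bbc3 changed by 0.07 in knockout lungs and -0.05 in wild type lungs, and Perp by 0.01 in knockout lungs and -0.36 in wild type lungs. The changes of Fas were -0.07 in knockout lungs and 0.17 in wild type lungs, those of Tnfrsf10b 0.15 in knockout lungs and 0.01 in wild type lungs, and those of Trp53inp1 0.12 in knockout lungs and -0.08 in wild type lungs.

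Mdm2, itself a p53 target, moved little. It read 9.43, 9.43 and 9.49 in knockout bleomycin lungs, against 9.32, 9.37 and 9.41 in knockout saline lungs, and 9.40, 9.42 and 9.54 in wild type bleomycin lungs, against 9.24, 9.10 and 9.34 in wild type saline lungs. Arrays did not overlap in either genotype, but the change was only 0.09 in knockout lungs (adjusted p = 0.611) and 0.22 in wild type lungs (1.17-fold, adjusted p = 0.0494). The wild type call was lost when any 1 of 11 of the 12 arrays was left out (adjusted p up to 0.168). A second Mdm2 probe set rose by 0.47 in wild type lungs (adjusted p = 0.0266 over all probe sets) and changed by 0.15 in knockout lungs.

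The checkpoint kinase gene Chek1 and Brca1, a scaffold of recombination repair, differed most between genotypes when each gene was read from its brightest probe set. Both are also known as genes that dividing cells express. Chek1 was 4.77, 5.25 and 5.06 in knockout bleomycin lungs, against 4.52, 4.68 and 4.70 in knockout saline lungs, and 6.13, 6.22 and 6.06 in wild type bleomycin lungs, against 4.76, 4.95 and 4.60 in wild type saline lungs. The log2 change was 0.39 ± 0.12 in knockout lungs (adjusted p = 0.102) and 1.36 ± 0.12 in wild type lungs (2.57-fold, adjusted p = 5.63e-06). Bleomycin arrays lay above saline arrays in both genotypes, by a margin under 0.1 in knockout lungs. Of its 4 other, dim probe sets, 1 rose in wild type lungs (1.04) and 3 changed by -0.09 to 0.13, so that the average of all 5 rose by 0.49.

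Brca1 was 4.40, 4.66 and 4.61 in knockout bleomycin lungs, against 4.25, 4.26 and 4.20 in knockout saline lungs, and 6.10, 5.58 and 5.79 in wild type bleomycin lungs, against 3.95, 4.33 and 3.86 in wild type saline lungs. The change was 0.32 ± 0.14 in knockout lungs (adjusted p = 0.24) and 1.77 ± 0.14 in wild type lungs (3.42-fold, adjusted p = 2.61e-06). Its level outside wild type bleomycin lungs was dim (3.86 to 4.66). Its other 3 probe sets changed by 0.01 to 0.73 in wild type lungs, with 1 past the threshold, and the average of all 4 rose by 0.70. Atm and Chek2 did not pass in either genotype: Atm changed by -0.05 in knockout lungs and 0.09 in wild type lungs, and Chek2 by -0.05 in knockout lungs and 0.21 in wild type lungs.

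The proliferation list, which holds neither gene, moved in the same direction. Of its 21 genes, 9 rose in knockout lungs (42.9% beside 1.98% of all genes) and 21 in wild type lungs (100% beside 13.3%). The difference of the responses was called lower in knockout for 15 (71.4% beside 3% of all genes). The plot of single genes against that list sets the arrays beside each other, and its part in the result for Chek1 and Brca1 was not tested.

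**Figure D3:**
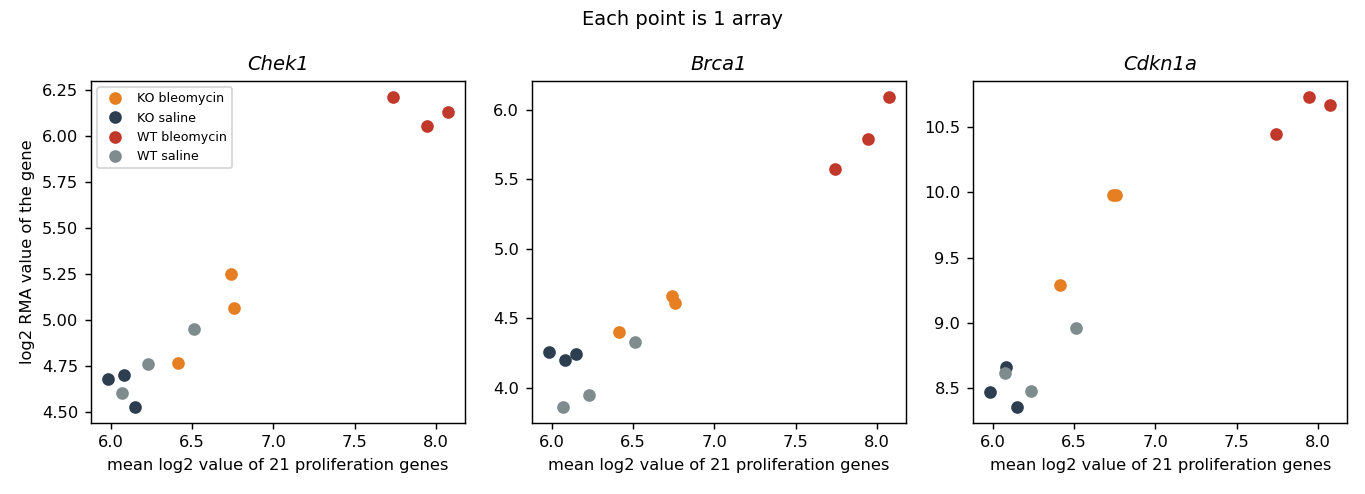
Each point is 1 array: the mean log2 value of 21 proliferation genes (horizontal) against the log2 value of Chek1, Brca1 and Cdkn1a (vertical), coloured by group. The 3 wild type bleomycin arrays stand apart at proliferation means of 7.74 to 8.08, and for Cdkn1a the knockout bleomycin arrays (9.29 to 9.98) lie above both saline groups, with proliferation means of 6.41 to 6.76, against 5.98 to 6.15 in knockout saline and 6.07 to 6.51 in wild type saline lungs.

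Of the 4 repair and nucleotide supply genes, 0 passed in knockout lungs, and 0 were higher and 2 lower in wild type lungs (50% beside 14.4% of all genes). Xpc, which recognizes bulky DNA lesions for nucleotide excision repair, was 8.67, 8.72 and 8.45 in knockout bleomycin lungs, against 8.90, 8.90 and 8.94 in knockout saline lungs, and 8.02, 8.29 and 8.30 in wild type bleomycin lungs, against 8.70, 8.72 and 8.70 in wild type saline lungs. It fell by 0.50 on the log2 scale in wild type lungs (adjusted p = 0.00129), and the change of -0.30 in knockout lungs did not pass (adjusted p = 0.106), although bleomycin arrays lay below saline arrays in both. Rrm2b, the p53-driven subunit of ribonucleotide reductase that supplies nucleotides outside of S phase, was 8.41, 8.17 and 8.24 in knockout bleomycin lungs, against 8.52, 8.42 and 8.61 in knockout saline lungs, and 7.62, 7.99 and 7.99 in wild type bleomycin lungs, against 8.46, 8.49 and 8.44 in wild type saline lungs. It was lower by 0.60 in wild type lungs (log2 change -0.60, adjusted p = 0.000917), and the change in knockout lungs was -0.25 (adjusted p = 0.232). Another 2 Rrm2b probe sets also fell in wild type lungs, and the last changed by 0.06. Ddb2, which finds ultraviolet lesions, changed by -0.29 in knockout lungs and -0.25 in wild type lungs, and the bypass polymerase gene Polk by 0.02 in knockout lungs and 0.21 in wild type lungs, and neither gene passed.

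Sesn1, a sestrin that restrains mTORC1 signalling, was lower after bleomycin. Its arrays read 9.44, 9.59 and 9.30 in knockout bleomycin lungs, against 9.80, 9.80 and 9.79 in knockout saline lungs, and 9.55, 9.49 and 9.15 in wild type bleomycin lungs, against 9.82, 10.16 and 9.62 in wild type saline lungs. The bleomycin arrays lay below the saline arrays in both genotypes, with a log2 change of -0.36 in knockout lungs (adjusted p = 0.18) and -0.47 in wild type lungs (adjusted p = 0.0197). The wild type call was lost without wild type saline replicate 2 or wild type bleomycin replicate 3 (adjusted p 0.0776 and 0.0895). Sesn2, its stress-induced relative, read 6.25 to 6.62 in knockout bleomycin lungs, against 5.92 to 6.29 in knockout saline lungs, and 6.47 to 6.89 in wild type bleomycin lungs, against 5.93 to 6.53 in wild type saline lungs. Its change was 0.36 in knockout lungs (adjusted p = 0.272) and 0.34 in wild type lungs (adjusted p = 0.146), and averaged over genotypes it passed, at 0.35. That call was lost under the replicate block (adjusted p = 0.0555), with all probe sets tested (0.0553), and without wild type saline replicate 3, wild type bleomycin replicate 2, knockout saline replicate 1 or 2 or knockout bleomycin replicate 2 or 3 (0.0747 to 0.0985). A second Sesn2 probe set of nearly the same brightness rose by 0.55 in wild type lungs (adjusted p = 0.00554 over all probe sets).

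Of the Ink4 inhibitors, Cdkn2a, whose products are p16 and Arf, was near the floor of the arrays, at the 9.55th percentile of all genes. It read 3.40, 3.50 and 3.24 in knockout bleomycin lungs, against 3.40, 3.48 and 3.05 in knockout saline lungs, and 3.91, 3.45 and 3.39 in wild type bleomycin lungs, against 3.30, 3.49 and 3.24 in wild type saline lungs. The groups overlapped, and neither the change of 0.07 in knockout lungs nor that of 0.25 in wild type lungs passed (adjusted p = 0.849 and 0.236). At such a level a change may not be detectable. Cdkn2b, which encodes p15, read 8.56, 8.34 and 8.34 in knockout bleomycin lungs, against 8.34, 8.36 and 8.54 in knockout saline lungs, and 8.68, 8.68 and 8.58 in wild type bleomycin lungs, against 8.23, 8.52 and 8.15 in wild type saline lungs. Knockout groups overlapped (change 0.00, adjusted p = 0.999) and wild type groups did not (0.35, adjusted p = 0.0238). That call was lost without wild type saline replicate 1 or 3 or wild type bleomycin replicate 1 or 2 (adjusted p 0.0641 to 0.0902). The difference of the Cdkn2b responses, -0.35, did not pass (limma, adjusted p = 0.192), although it did with array weights (-0.41, adjusted p = 0.0454).

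**Figure D4:**
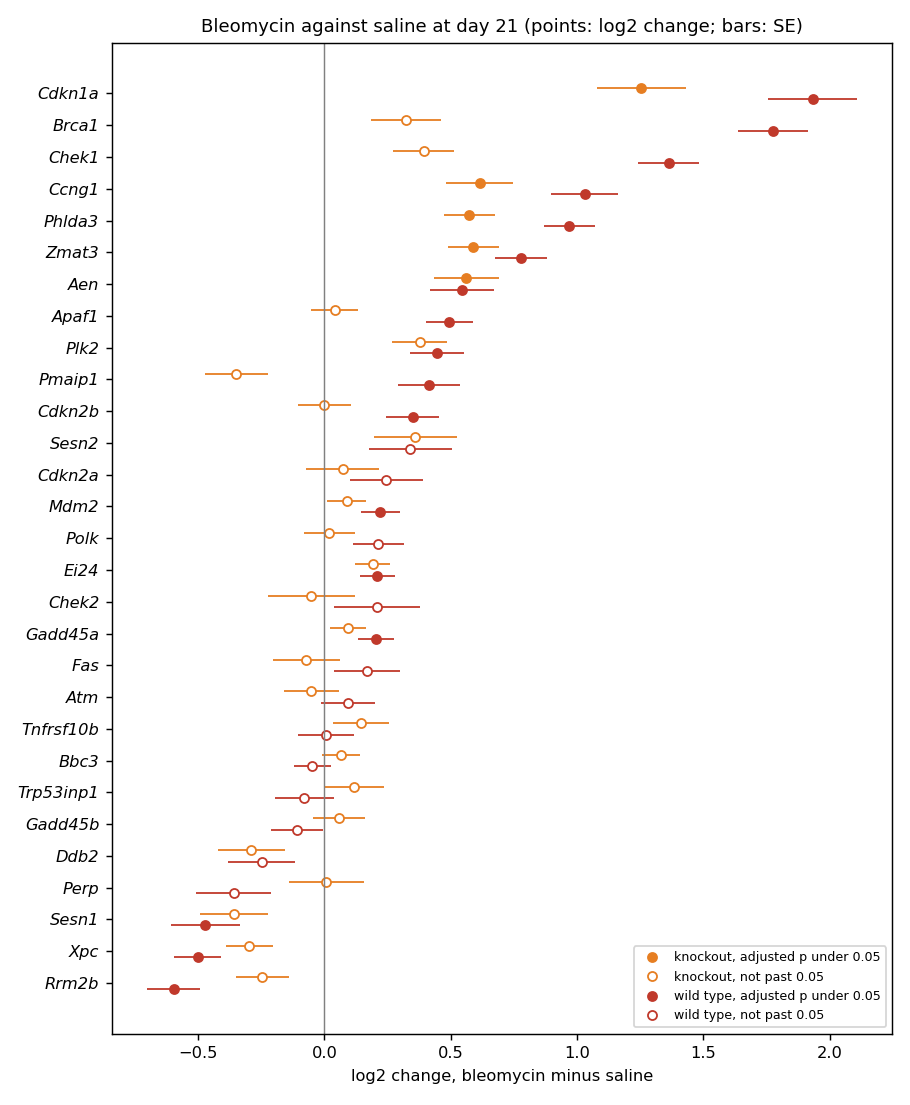
The log2 change, bleomycin minus saline, of each of the 29 genes in knockout (orange, upper) and wild type lungs (red, lower), with its SE as a bar and filled points for an adjusted p under 0.05. Filled points stand to the right for 5 genes in knockout lungs and 14 in wild type lungs, and to the left only for Sesn1, Xpc and Rrm2b in wild type lungs.

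Whether the signature differed by genotype was tested on the difference of the responses, knockout minus wild type. It was lower for 3 of the 29 genes and higher for 0, 10.3% beside 5.02% of all genes called (2.03% higher, 3% lower). The 3 were Brca1 (-1.45, 95% interval -1.88 to -1.03, adjusted p = 0.00298), Chek1 (-0.97, interval -1.34 to -0.60, adjusted p = 0.00848) and Pmaip1 (-0.76, interval -1.14 to -0.38, adjusted p = 0.0294). Averaging all probe sets of a gene ended the calls for Chek1 (-0.37, adjusted p = 0.0583) and Brca1 (-0.52, adjusted p = 0.0507), which were then smaller than the difference of -0.76 for Pmaip1, a gene with 1 probe set. The call for Pmaip1 was lost without wild type saline replicate 1 or 3, wild type bleomycin replicate 1, knockout saline replicate 1 or 3, or knockout bleomycin replicate 1 (adjusted p 0.0571 to 0.0778). It was also lost with the replicate number as a block (limma, adjusted p = 0.0541).

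In the fit without array weights, the direct p53 targets that rose in both genotypes did not differ past the threshold. Their intervals leave room for a sizeable difference. These genes were picked for a call in both genotypes, which favours similar responses in advance, so they cannot show that the responses were alike. For Cdkn1a the difference was -0.68 (interval -1.22 to -0.14, adjusted p = 0.134), for Ccng1 -0.42 (-0.82 to -0.01, adjusted p = 0.218), for Phlda3 -0.40 (-0.70 to -0.09, adjusted p = 0.126) and for Zmat3 -0.19 (-0.50 to 0.12, adjusted p = 0.474). With array weights the difference for Cdkn1a was larger and passed (-0.79, limma, adjusted p = 0.0307). The second, dimmer probe set of Cdkn1a gave a difference of -0.38 (limma, adjusted p = 0.498 over all probe sets). For Aen, whose interval is given above, the difference was 0.02 (adjusted p = 0.967). Over the 29 genes the difference was above 0 for 10 and its median was -0.13, with 0.04 over all genes.

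**Figure D5:**
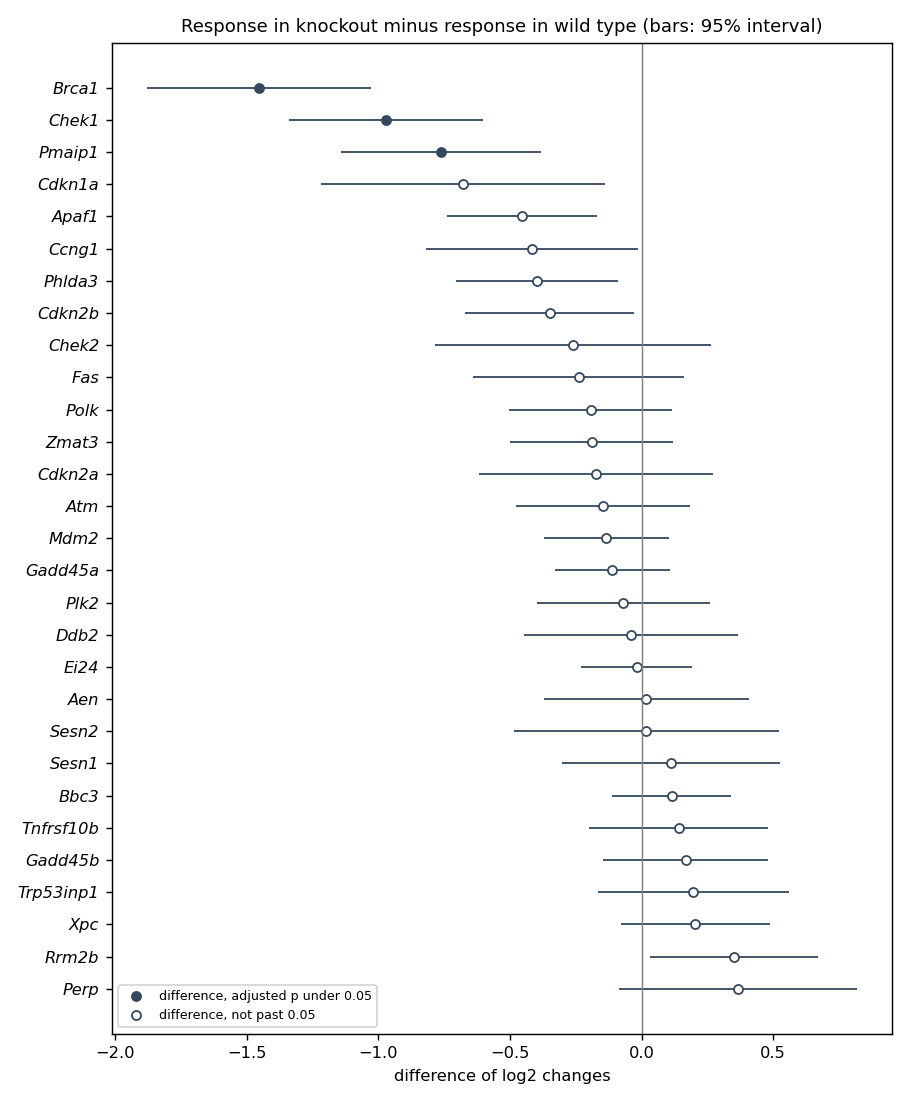
The response in knockout minus the response in wild type for each of the 29 genes, as a difference of log2 changes with its 95% interval, unadjusted. Filled points, with an adjusted p under 0.05, are Brca1 (-1.45), Chek1 (-0.97) and Pmaip1 (-0.76).

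After bleomycin alone, 2 of the 29 genes were higher and 8 lower in knockout than in wild type lungs, 34.5% beside 15.4% of all genes (7.52% higher, 7.89% lower). This comparison shares its bleomycin arrays with those above and is no separate evidence. The higher genes were Xpc and Rrm2b, each by 0.41 (adjusted p = 0.00954 and 0.0191). The lower genes were Brca1 (-1.26), Chek1 (-1.11), Cdkn1a (-0.87, adjusted p = 0.0054), Phlda3 (-0.55, adjusted p = 0.00291), Fas (-0.45, adjusted p = 0.0338), Pmaip1 (-0.43, adjusted p = 0.0354), Apaf1 (-0.42, adjusted p = 0.00849) and Zmat3 (-0.41, adjusted p = 0.0154). The second, dimmer probe set of Cdkn1a differed by -0.62 and did not pass (limma, adjusted p = 0.0629 over all probe sets). Nor did the second of Apaf1 (-0.40, adjusted p = 0.332) or the others of Rrm2b (0.24 to 0.42, adjusted p 0.148 to 0.507). The other probe sets ran from -0.90 to 0.09 for Chek1 and from -0.71 to 0.12 for Brca1, and not all passed. Fas read 8.12, 8.15 and 8.29 in knockout bleomycin lungs, against 8.58, 8.74 and 8.62 in wild type bleomycin lungs, with no overlap. Over the 29 genes, knockout arrays lay wholly above wild type arrays for 4 (18% of all genes) and wholly below for 9 (15.4% of all genes). The count dropped to 6 without knockout bleomycin replicate 1 or without wild type bleomycin replicate 1, and the calls lost in both were those of Zmat3, Fas, Pmaip1 and Rrm2b. Fas was also lost without wild type bleomycin replicate 2 or 3 or knockout bleomycin replicate 2, and Pmaip1 without wild type bleomycin replicate 2 or knockout bleomycin replicate 2 or 3. Under 9 alternatives that kept all arrays of the comparison, the Pmaip1 call was lost in 6 and that of Fas in 2. The calls of Xpc and Rrm2b were each lost in 1, the fit of the 2 groups alone.

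After saline, 0 of the 29 genes passed between knockout and wild type lungs in limma. Of all genes, 0.489% did, 0.297% higher and 0.192% lower. Without adjustment, 6 of the 29 had a limma p under 0.05. The share of all genes at that looser threshold was not counted, so this count cannot be weighed. Knockout arrays lay wholly above wild type arrays for 5 (7.28% of all genes) and wholly below for 2 (9.45% of all genes). The smallest adjusted p was 0.186, for Gadd45a, which was 6.94 to 7.05 in knockout saline lungs, against 6.66 to 6.83 in wild type saline lungs. With array weights this 1 gene passed (0.28, adjusted p = 0.00812).

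The knockout response rests on arrays that were not alike. Knockout bleomycin replicate 1 was the lowest of its group for Cdkn1a, Ccng1, Phlda3, Zmat3 and Aen. It also had the lowest mean of its group for the proliferation genes (6.41), the macrophage markers (8.87) and 9 fibroblast and matrix genes (10.77). The same held for 7 B and plasma cell markers (9.31), 6 cardiac muscle markers (7.51) and 5 adipocyte markers (5.70). The last 2 lists had median changes below 0 in knockout lungs (-1.36 and -1.16). For T and NK cell (7.18), endothelial (11.27) and alveolar epithelial markers (12.86) the array had the highest mean of its group. Without this array, 6 of the 29 genes passed in knockout lungs. The rise of Cdkn1a there was then 1.48 (limma, adjusted p = 0.000145), and its difference from wild type was -0.45 (adjusted p = 0.236). Ccng1 then changed by 0.79, Phlda3 by 0.67, Zmat3 by 0.67 and Aen by 0.67 in knockout lungs.

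Other p53 targets, 29 measured of a list of 30, were counted the same way. In knockout lungs 6 were higher and 0 lower (20.7% beside 3.26% of all genes), and in wild type lungs 11 were higher and 6 lower (58.6% beside 27.7%). The difference of responses was called higher for 1 and lower for 3 (13.8% beside 5.02%). Psrc1, which encodes a spindle protein, was 6.00, 7.02 and 7.38 in knockout bleomycin lungs, against 4.94, 4.53 and 4.49 in knockout saline lungs, and 8.28, 8.27 and 8.42 in wild type bleomycin lungs, against 4.77, 5.31 and 4.68 in wild type saline lungs. Treatments did not overlap in either genotype, with a change of 2.15 in knockout lungs (adjusted p = 0.00169) and 3.41 in wild type lungs (adjusted p = 2.93e-06), and the difference of -1.26 did not pass (adjusted p = 0.0829). Eda2r, a receptor of the tumour necrosis factor family, rose by 0.74 in knockout lungs and 1.76 in wild type lungs. Ckap2, a mitotic spindle protein, rose by 0.80 in knockout lungs and 1.85 in wild type lungs. The knockout call of Eda2r was lost without knockout saline replicate 1 or 2 (adjusted p 0.0709 and 0.0663) and that of Ckap2 without knockout saline replicate 2 or 3 (0.106 and 0.0906). Both were lost without knockout bleomycin replicate 2 or 3 (adjusted p 0.0692 to 0.0964). Sfn, which encodes the 14-3-3 protein that holds cells before mitosis, changed by 0.60 in knockout lungs (adjusted p = 0.0981) and rose by 1.78 in wild type lungs.

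Of 29 measured genes that sense breaks and repair them, 2 were higher and 0 lower in knockout lungs (6.9% beside 3.26% of all genes), and 6 were higher and 1 lower in wild type lungs (24.1% beside 27.7% of all genes). The median change was -0.01 in knockout lungs and -0.02 in wild type lungs. The genes with the smallest p in wild type were Clspn, the adaptor of CHK1 at stalled forks (0.57 in knockout lungs, adjusted p = 0.0444, and 1.85 in wild type lungs), H2ax, the histone phosphorylated at breaks (0.31, adjusted p = 0.0285, and 0.53), Topbp1, an activator of the kinase ATR (0.06, adjusted p = 0.768, and 0.48), and Mre11a, a nuclease of the break-sensing complex (0.36, adjusted p = 0.177, and 0.56). The knockout call of Clspn was lost with its probe sets averaged (0.19, adjusted p = 0.215) and under the replicate block (adjusted p = 0.0792), and without wild type saline replicate 1, wild type bleomycin replicate 2, knockout saline replicate 1 or 2 or knockout bleomycin replicate 2 or 3 (adjusted p 0.0601 to 0.184). That of H2ax was lost under the block (adjusted p = 0.0602) and without any 1 knockout saline array or knockout bleomycin replicate 2 or 3 (adjusted p 0.0751 to 0.109). With its probe sets averaged, Topbp1 changed by only 0.17 in wild type lungs (adjusted p = 0.145). Clspn also belongs to the genes that dividing cells express.

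Of 27 secreted factors and markers tied to senescence, 4 were higher and 1 lower in knockout lungs (18.5% beside 3.26% of all genes), and 15 were higher and 3 lower in wild type lungs (66.7% beside 27.7%). Many such factors are also made by the macrophages and fibroblasts whose markers moved with treatment, and the part of those cells was not tested. Timp1, an inhibitor of matrix proteases, rose by 1.32 in knockout lungs (adjusted p = 0.036) and 4.01 in wild type lungs. Mmp13, a collagenase, changed by 0.61 in knockout lungs (adjusted p = 0.129) and rose by 2.50 in wild type lungs. The monocyte attractant Ccl2 changed by 0.25 in knockout lungs and rose by 2.20 in wild type lungs, and Igfbp6, a binding protein of insulin-like growth factor, fell by 0.86 in knockout lungs and by 2.04 in wild type lungs. The knockout calls of both Timp1 (adjusted p 0.0885 to 0.138) and Igfbp6 (0.0633 to 0.0927) were lost without any 1 knockout saline array or without knockout bleomycin replicate 2 or 3, and that of Timp1 also under the replicate block (adjusted p = 0.0678) and with trend and robust eBayes (adjusted p = 0.0746).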

How the data were processed

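Total RNA from 12 lung samples was measured on Affymetrix arrays. The deposited table holds 1 log2 value per probe set and array, which the authors made with affy and RMA, per the submitters' processing notes, which also name limma. Their versions and a genome build are not given in the sources used here. RMA sets the probe values of all arrays to 1 distribution before it combines them into probe set values. Differences are therefore relative to the other genes of an array. The array medians of the combined values still differed slightly (5.58 to 5.68). The annotation pairs 34958 of 45101 probe sets with 1 gene, 932 with more than 1 and 9211 with no gene, and only the first kind was used. Entrez identifiers linked 34754 of these to the GRCm38.p6 gene table. The brightest probe set of each gene was tested (18194 genes), with no filter on dim ones.

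All arrays entered 1 limma fit with a mean per group (limma 3.58.1, R 4.3.3), with eBayes (8 residual and 4.86 prior degrees of freedom) and Benjamini-Hochberg adjustment over all genes, called at 0.05. SE is from this fit, and a 95% interval is unadjusted. The precision is limited by 3 arrays per group. Genes were named if called in any of 6 comparisons, and Cdkn1a, Mdm2 and Cdkn2a always. From each other list up to 4 called genes with the smallest p in wild type lungs were named. The genes and lists were chosen with earlier results of these data known. Alternatives were other scalings, filters, probe set rules, array weights, only the groups compared, the replicate number as a block, and each array left out. The procedure was tested on simulated data. Figures were drawn with matplotlib 3.10.9.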

Additional observations from a re-analysis of the deposited data

Results flagged for a closer look

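The difference of the responses to bleomycin, knockout minus wild type, passed the test for 3 of the 29 genes: Brca1 (-1.45), Chek1 (-0.97) and Pmaip1 (-0.76). It also passed for 8 named genes of the other lists. Among other p53 targets these were Sfn (-1.19), Ckap2 (-1.05) and Eda2r (-1.02). Among genes that sense and repair breaks it was Clspn (-1.28). Among senescence-associated factors these were Timp1 (-2.69), Ccl2 (-1.95), Mmp13 (-1.89) and Igfbp6 (1.17), the last of which fell less in knockout lungs than in wild type lungs. The call for Ckap2 was lost under the replicate block (adjusted p = 0.0506) and without wild type saline replicate 1 or 3, wild type bleomycin replicate 1, knockout saline replicate 1 or 2 or knockout bleomycin replicate 1 (0.0506 to 0.0779). That for Sfn was lost without wild type saline replicate 1, knockout saline replicate 1 or 3 or knockout bleomycin replicate 1 (0.0519 to 0.0605), and that for Igfbp6 without wild type saline replicate 3 or knockout saline replicate 1 or 2 (0.0526 to 0.0692). The 8 genes were named for a small p in wild type lungs, which favours a smaller knockout response in advance. Their differences are therefore no separate support. Over the whole lists, the difference was called for 13.8% of other p53 targets and 3.45% of genes that sense and repair breaks. It was called for 25.9% of senescence-associated factors and markers, beside 5.02% of all genes.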

How the results depend on the processing

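Of 50 called values of the 29 genes over the 6 comparisons, 30 stayed called under each alternative that gave a value (at most 9 for a comparison) and with each of the 12 arrays left out, and 0 reversed. Of 124 values that were not called, 18 were called in at least 1 setting. The count in wild type lungs was 11 in a fit of the 2 groups alone, against 17 in the fit of all arrays, and 12 to 16 with an array left out. With array weights the count was 8 in knockout lungs, 5 for the difference of responses and 1 after saline, against 5, 3 and 0. With all probe sets of a gene averaged, 1 difference of responses was called. With an array left out the counts were 3 to 6 in knockout lungs, 2 to 4 for the difference, 6 to 11 between genotypes after bleomycin and 13 to 16 averaged over genotypes (15 with all arrays). The cause of these shifts was not tested.

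Groups share replicate numbers, but the numbers did not pair the samples: deviations of same-numbered arrays correlated between -0.30 and 0.20, above 0.1 in 2 of 12 pairs. With the replicate block, 14 genes were called in wild type lungs, 5 in knockout lungs, 2 for the difference, 0 after saline, 10 after bleomycin between genotypes and 13 averaged over genotypes. Subtracting array medians moved the share of higher calls among all genes to 75.5% in knockout lungs, against 60.6%, to 50.7% for the difference, against 40.4% (51.2% with a repeated quantile normalization), and to 48.1% after saline, against 60.7%. Of the 29 genes, 26 had a mean log2 value of at least 5, and Brca1, Tnfrsf10b and Cdkn2a lay below it, where signal near background limits what can be seen.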
